A study of Rattus norvegicus with 24 samples.

Results

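Heat shock proteins and chaperones were read from 93 probe sets of 72 genes, out of 12789 probe sets of 10412 genes that carry a single gene symbol on the array. The members were all genes whose symbol begins with Hsp, Dnaj, Cct or Bag in the sense of these families, together with Tcp1, Calr, Canx, Pdia3, Pdia4, Pdia6 and P4hb, and without the matrix proteoglycan Hspg2. The choice rested on names and used no measured value, although earlier results of these data were known when it was made. By role they comprised 8 other members of the HSP70 and HSP110 families (1 of them, Hspa13, of microsomes), 1 HSP90, 8 subunits of the chaperonin TRiC, 23 cytosolic and other J proteins, 7 BAG and other HSP70 cofactors, 6 small heat shock proteins, 5 mitochondrial chaperones, and 14 chaperones and disulfide isomerases of the endoplasmic reticulum (ER). A further 4 probe sets, which the annotation assigns to Hspa1a with Hspa1b, to Hsp90aa1 with a pseudogene (2 probe sets) and to Hspa8 with another gene, were left out because they name several genes.

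The arrays came from male Sprague-Dawley rats aged 4, 10, 18 and 24 months, for which the labels name no treatment. The 6 tissues were bone, kidney, liver, spleen lymphocyte, pituitary and hypothalamus, with 24 arrays in all, and each array held RNA pooled from 10 rats. At each age 1 set of rats gave every tissue, so age and set of rats cannot be told apart, and no tissue and age has a replicate. According to the labels all ages were housed with a 12 h cycle of dark and light, and tissues were removed within 10 minutes. The labels and the study's methods differ on the housing temperature, so none is given. Signals are MAS5 values on a linear scale, scaled by the authors to the same trimmed mean on every array.

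Chaperones help other proteins fold, refold or reach their place. HSP70 proteins bind and release unfolded stretches in a cycle that J proteins start and that BAG proteins, HSP110 and other cofactors carry on to nucleotide release. HSP90 finishes the folding of kinases and steroid receptors, TRiC encloses actin and tubulin in a double ring, and small heat shock proteins hold unfolding proteins in solution. Heat shock factor switches on the cytosolic set through heat shock elements, repeats of the letters GAA and TTC, whereas stress in the ER acts through Atf6 and Xbp1 at ER stress elements. Tissues that secrete much protein, such as liver and pituitary, are known for a rich ER folding machinery.

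Both kinds of element were looked for in the promoters that RefSeq gives for rat build GRCr8 (250 bases before to 50 after the start site). A promoter was found for 60 of the 72 members and for 27457 genes in all. The ER stress element, spelled CCAAT, 9 bases of any kind and CCACG, on either strand, was present in 21 of the 27457 genes (0.0765%). Of these, 5 were members (8.33% of the 60), all from the ER group. They included Hspa5, the ER HSP70 (BiP), Hsp90b1, the ER HSP90, with 2 copies, the lectin chaperone Calr, and Dnajc3, a J protein that partners Hspa5. The elements of these 4 genes are printed as examples from the ER group described below, where Hspa5 and Dnajc3 were called in liver and Hsp90b1 and Calr in no tissue. Each lies before the start site, and capitals mark the element.
Hspa5 (chr3:38452963-38453001, plus strand): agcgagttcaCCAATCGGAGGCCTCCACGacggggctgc
Hsp90b1 (chr7:23012441-23012479, minus strand): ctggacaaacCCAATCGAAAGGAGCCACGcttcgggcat
Hsp90b1 (chr7:23012337-23012375, minus strand): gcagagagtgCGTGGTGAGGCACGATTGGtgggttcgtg
Calr (chr19:40213125-40213163, plus strand): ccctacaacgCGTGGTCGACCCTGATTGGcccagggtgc
Dnajc3 (chr15:102432524-102432562, plus strand): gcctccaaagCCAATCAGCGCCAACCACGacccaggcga

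The heat shock element was searched as 3 units in a row, GAA, 2 bases of any kind, TTC, 2 bases of any kind and GAA, or the same starting from TTC, which covers both strands. It was held by 218 of the 27457 genes (0.794%), and by 5 of the 60 members (8.33%). Those members were Hsph1, an HSP110 that acts as exchange factor of HSP70; Dnaja1, a general J protein; Cct4, a TRiC subunit; and the mitochondrial chaperonin pair Hspd1 (HSP60) and Hspe1 (HSP10). Hspd1 (chr9:64073610-64084332, minus strand) and Hspe1 (chr9:64084327-64087415, plus strand) lie head to head, and overlapping matches fall in the promoter windows of both. In the plus strand of Hspe1 they form 1 run of 4 units. The matches of Dnaja1 and Cct4 lie after their start sites. Pairs of units are common: GAA and TTC with 2 bases of any kind between them were present in 12 of the 60 members against 9.09% of all genes, and TTC and GAA so spaced in 11 (18.3%) against 9.27%. Each pair reads the same on both strands. The pairs overlap with the longer element. A match of letters is a description and shows no binding.
Hsph1 (chr12:10427322-10427354, plus strand): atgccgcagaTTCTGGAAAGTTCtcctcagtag
Hspe1 (chr9:64084257-64084284, plus strand): ctcggTTCTAGAACCTTCCGGAAggccc
Dnaja1 (chr5:60638403-60638425, plus strand): gggccgggcgGAACTTTCCAGAA
Cct4 (chr14:101193072-101193094, plus strand): cggcgtcgctTTCTGGAAGGTTC

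The labelled tissues carried their own marker genes: all 6 hypothalamic, 7 pituitary, 6 liver and 5 kidney markers on the array were highest in their tissue, as were 5 of 6 lymphocyte and 4 of 5 bone markers. The bone array at 18 months stood apart by a high lowest range (5th percentile of signal 33.46, against 9.13 to 15.7 on the other 23 arrays). The hypothalamus array at 10 months held liver transcripts: its summed signal of 6 liver markers was 12938, against 2555, 1236 and 1312 at 4, 18 and 24 months, and Alb (albumin) gave 9579 there against 1371, 393 and 376. The liver arrays had sums of 218020 to 239950. Without that hypothalamus array 11 members were called in hypothalamus (12 with it), 9 in pituitary (10) and 13 in spleen lymphocyte (14), with liver, kidney and bone at 20, 6 and 8 as before. The log2 ratio of 3′ to 5′ signal of Actb, a sign of RNA quality, ranged from 0.48 to 1.56 in bone, 1.40 to 1.94 in kidney, 1.98 to 2.42 in pituitary, 1.10 to 3.09 in hypothalamus, 1.43 to 2.85 in liver and 1.88 to 3.74 in spleen lymphocyte. The bone arrays also held summed signals of 37935 to 62163 for 3 erythroid markers, against at most 31749 elsewhere, and of 2499 to 8171 for 8 skeletal muscle markers, against at most 1469. These sums and the Actb ratios differ between tissues together with the members below, and their part in the results was not tested.

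Of the 63 members tested between tissues, 35 were called in at least 1 tissue and 28 in none. The share of all genes called in at least 1 tissue was not computed, and the shares for each tissue are given below. The comparison set each tissue against the mean of the other 5 with age as a factor, and a gene was called at an adjusted p under 0.05 and a difference of at least 2-fold (limma, Benjamini-Hochberg over 8453 genes). It took genes with a signal of 100 or more on at least 12 arrays, lower signals being set to 100, so that fold changes of genes below that level are understated. In liver 20 members were called, 31.7% of those tested against 26.4% of all genes, with 9 higher (10.1% of all genes) and 11 lower (16.3%). Spleen lymphocyte had 14 called (28.6% of all genes), 3 higher (13.4%) and 11 lower (15.2%). Hypothalamus had 12 (23.1% of all genes), 8 higher (11.8%) and 4 lower (11.4%), and pituitary 10 (17.6%), 7 higher (10.5%) and 3 lower (7.09%). Bone had 8 (19.5% of all genes), 1 higher (10.8%) and 7 lower (8.71%), and kidney 6 (19.9%), 5 higher (11.0%) and 1 lower (8.92%). The member shares of 9.52% in kidney and 12.7% in bone were below those of all genes, and only that in liver was above. With each array centred on its median the split moved to 10 higher and 8 lower in liver, to 5 higher and 4 lower in pituitary and to 1 higher and 11 lower in bone. With quantile normalization it was 6 higher and 8 lower in liver. With the mean of all probe sets of a gene it was 5 higher and 3 lower in kidney and 5 higher and 10 lower in spleen lymphocyte. With the kidney array at 18 months left out the kidney count was 9. It was 10 with that array, the bone array at 18 months and the hypothalamus array at 10 months left out together. In bulk tissue, fewer cells of a type and less RNA per cell cannot be told apart.

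**Figure D1:**
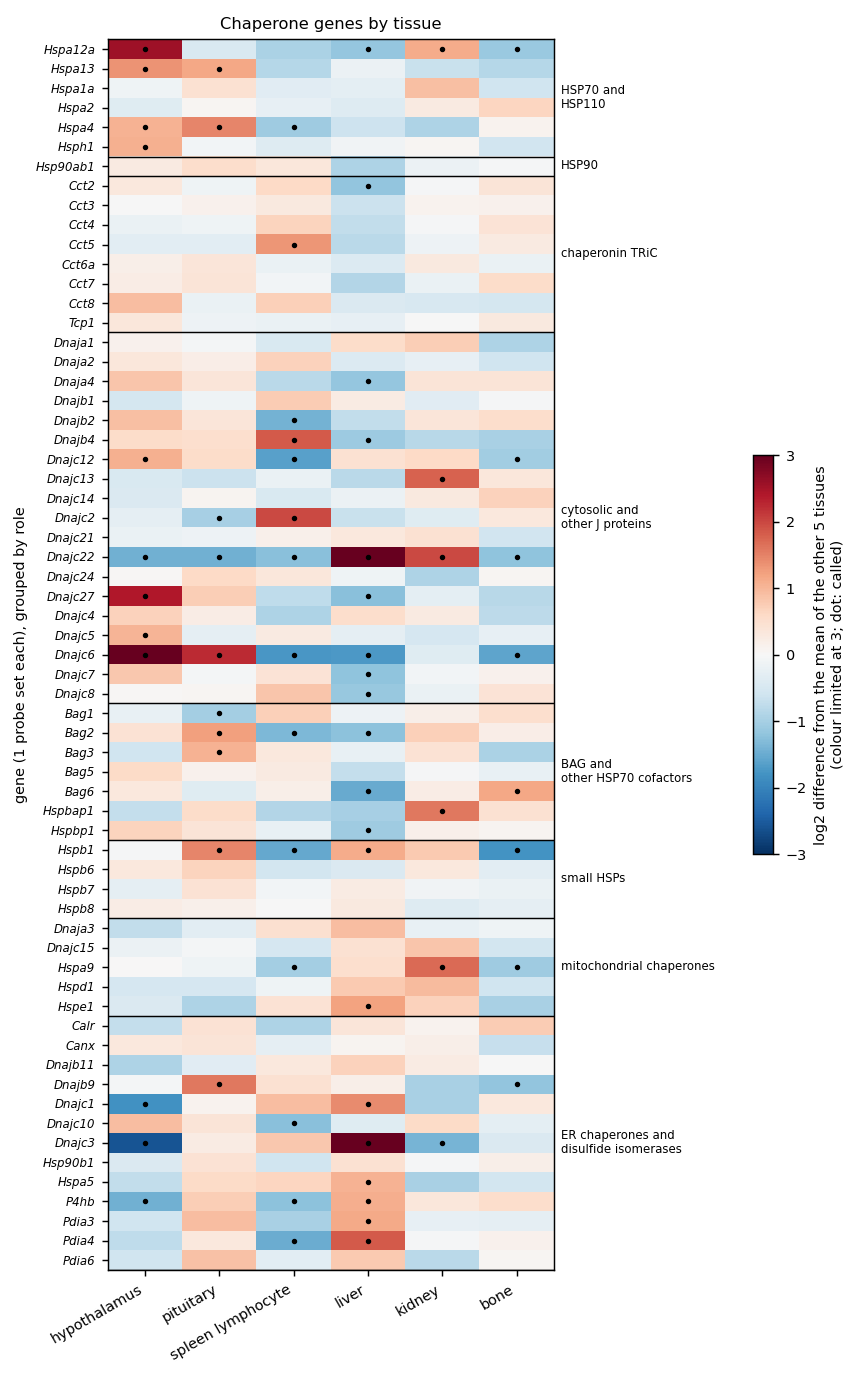
Log2 difference of each of the 63 tested chaperone genes from the mean of the other 5 tissues, by role; rows are genes, columns are tissues, red is higher, blue is lower and a dot marks a call. The ER chaperones are mostly red in liver and pituitary and mostly blue in hypothalamus, and the 8 TRiC subunits are all blue in liver.

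The median spread over the 6 tissue means was 1.46 on the log2 scale (2.74-fold) among the members and 1.62 (3.07-fold) over all genes tested. It was largest for the ER group (1.76) and smallest for the small heat shock proteins (0.79). The highest tissue was hypothalamus for 16 of the 63 members tested, liver and pituitary for 12 each, spleen lymphocyte for 10, kidney for 8 and bone for 5. Of all 8453 genes tested it was hypothalamus for 1325 (15.7%), liver for 1282 (15.2%) and pituitary for 1478 (17.5%). It was spleen lymphocyte for 1833 (21.7%), kidney for 1182 (14%) and bone for 1353 (16%). Of the 13 ER members tested, 8 were highest in liver and 3 in pituitary.

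In liver, 12 of the 13 ER members lay above the other tissues, with a median difference of 0.78 on the log2 scale where the median of all genes was −0.25, and 6 of them were called higher. Dnajc3 (P58IPK), which binds unfolded clients in the ER and holds back the kinase PERK, was the strongest of them. Its liver signals were 6774, 4868, 5659 and 3997 at 4, 10, 18 and 24 months, and the other 20 arrays ran from 109 (median 576) to 1349. The liver arrays stood wholly above all others, a difference of 3.37 ± 0.17 (SE), or 10.4-fold (adjusted p = 3.85e-14). Pdia4, a disulfide isomerase with several thioredoxin domains, gave 2151, 1735, 2002 and 2523 in liver against 167 to 1232 elsewhere (median 658), and was 3.55-fold higher (1.83 ± 0.22, adjusted p = 2.53e-07) without overlap.

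Hspa5 itself showed a milder gradient. The liver values were 9329, 7081, 10574 and 8124, those of spleen lymphocyte 7039, 8317, 7284 and 5314, and those of pituitary 6344, 6017, 6872 and 7137. Hypothalamus (2568 to 3682), kidney (2345 to 3410) and bone (2678 to 3901) lay below all arrays of those 3 tissues. The liver difference was 1.04 ± 0.15 (2.06-fold, adjusted p = 2.15e-06), close to the 2-fold limit, and was 0.94 without the liver array at 18 months and 0.996 without that at 4 months. Hsp90b1 ran from 4529 to 5282 in liver and from 2249 to 2930 in spleen lymphocyte, and was called in no tissue.

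The oxidative folding enzymes followed. P4hb, the classical protein disulfide isomerase and a subunit of the collagen prolyl hydroxylase, gave 7298, 6204, 7927 and 7629 in liver and 1860, 1838, 2083 and 1796 in spleen lymphocyte. In hypothalamus it gave 1901, 2319, 1848 and 1004. It was called 2.12-fold higher in liver (adjusted p = 1.35e-06), 2.7-fold lower in hypothalamus (adjusted p = 2.3e-08) and 2.36-fold lower in spleen lymphocyte (adjusted p = 1.67e-07). Pdia3, which works with calnexin and calreticulin on glycoproteins, was 2.21-fold higher in liver, where it ran from 5412 to 7495, and the pituitary arrays overlapped that range (5096 to 6058). The Pdia3 difference was 0.72 with the mean of its probe sets, and not called. Pdia6 (0.78 in liver and 0.88 in pituitary), Calr (0.76 in bone and −0.93 in spleen lymphocyte) and Canx (−0.70 in bone) did not reach 2-fold in any tissue. The direction for Canx in bone turns with the probe set, since its other probe sets were 1.85 and 0.06 there.

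In pituitary 12 of the 13 ER members lay above 0, with a median of 0.43 where that of all genes was 0.11. Only Dnajb9 (ERdj4) was called there, a J protein that presents misfolded proteins for degradation. Its pituitary signals of 2665, 2802, 2857 and 2396 stood above all other arrays (411 to 1684, median 1014), 3-fold (1.59 ± 0.15, adjusted p = 1.05e-08). With quantile normalization the pituitary ER median was 0.70 and with median centring 0.23.

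Hypothalamus was the reverse, with 11 of the 13 ER members below 0 (median −0.72, all genes −0.13) and 3 called lower. Dnajc3 gave 109, 164, 285 and 155 there (−2.59 ± 0.17, 6-fold lower, adjusted p = 8.05e-12), and its 18-month value overlapped the kidney arrays, where Dnajc3 was also called lower (−1.40, adjusted p = 2.28e-07). Dnajc1, an ER membrane J protein, gave 168, 163, 219 and 252, below all 20 other arrays (296 to 1364, median 684). Without the 10-month array, which held liver transcripts, Dnajc3, Dnajc1 and P4hb were still called lower in hypothalamus. In spleen lymphocyte Pdia4 (167, 446, 358 and 328) was 2.82-fold lower (adjusted p = 4.04e-06), together with P4hb and Dnajc10 (2.37-fold lower), an ER reductase with a J domain.

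**Figure D2:**
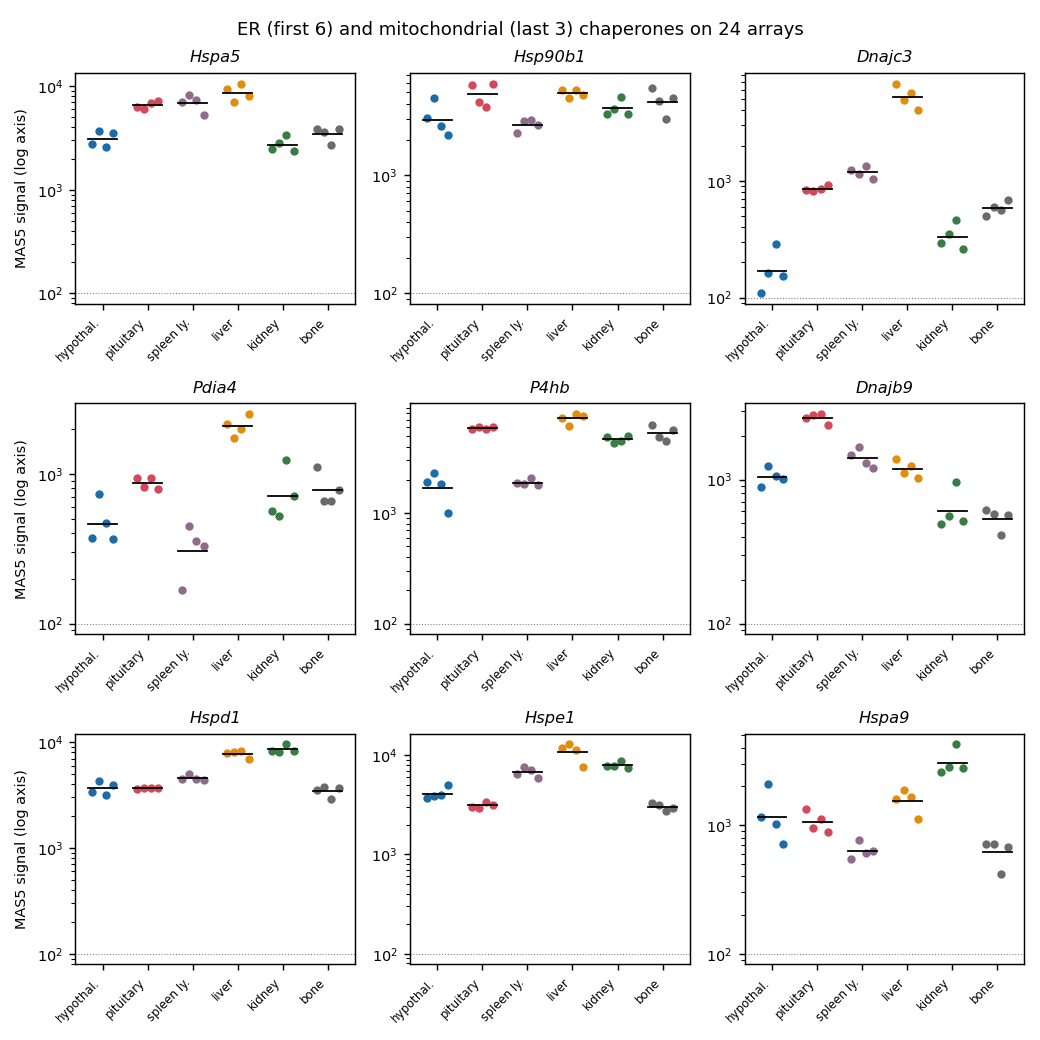
MAS5 signal (log axis) of 6 ER and 3 mitochondrial chaperones; each point is 1 array, the 4 points of a tissue run from 4 to 24 months from left to right, black bars are geometric means and the dotted line is a signal of 100. The liver points of Dnajc3 and Pdia4, the pituitary points of Dnajb9 and the kidney points of Hspa9 lie above all others of those genes.

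The mitochondrial chaperones were higher in liver and kidney. All 5 members lay above 0 in liver (median 0.80) and 4 of 5 in kidney (median 0.82), and all 5 lay below 0 in bone (median −0.60) and in pituitary (median −0.32). The medians of all genes were −0.25 in liver, −0.13 in kidney, 0.004 in bone and 0.11 in pituitary. Hspd1, the subunit of the matrix chaperonin ring, gave 8305, 8031, 9586 and 8339 in kidney and 7878, 8068, 8243 and 7008 in liver. Its values in the other 4 tissues ran from 2900 in bone to 4957 in spleen lymphocyte, so liver and kidney stood apart without overlap. Each of the 2 differences passed the adjusted p (kidney 0.96, adjusted p = 1.36e-07; liver 0.80, adjusted p = 1.37e-06) but neither reached 2-fold.

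Hspe1, the lid of the same chaperonin, gave 11724, 12950, 11344 and 7537 in liver (2.31-fold higher, adjusted p = 2.36e-08) and 7864, 7882, 8651 and 7426 in kidney. The liver value at 24 months lay within the kidney range. Over the 24 arrays the neighbours Hspd1 and Hspe1 correlated with r = 0.88 on the log2 scale, and with r = 0.54 after tissue means were removed. For Hspd1 and Hspa9, which are not neighbours, r was 0.77 and 0.67. The arrays share tissues and ages, so these coefficients are descriptions. Hspa9 (mortalin), the matrix HSP70 that pulls in imported proteins, gave 2602, 2812, 4263 and 2760 in kidney, above all other arrays (413 to 2099, median 913), 3.26-fold (1.70 ± 0.19, adjusted p = 8.32e-08). It was called lower in bone (−1.07, with −0.86 and no call without the bone array at 18 months) and in spleen lymphocyte (−1.03). The spleen lymphocyte call was lost without any 1 of 4 arrays (hypothalamus 10 months, −0.98; kidney 18 months, −0.99; bone 24 months, −0.996; spleen lymphocyte 4 months, −0.93). With the mean of the Hspa9 probe sets the kidney call remained (1.12), and bone (−0.57) and spleen lymphocyte (−0.93) were not called. The J proteins Dnaja3 and Dnajc15 were not called in any tissue.

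In the HSP70 and HSP110 group, 4 of 6 members tested were called higher in hypothalamus, and 3 of 5 without the microsomal Hspa13. Hspa12a, a distant HSP70 relative, gave 1202, 927, 571 and 801 there, above all other arrays (16.5 to 521, median 82.3), a difference of 2.55 ± 0.18 (5.84-fold, adjusted p = 4.05e-11). Hsph1 gave 2704, 3222, 2330 and 2364 against 905 to 1938 elsewhere (median 1261) and was 2.09-fold higher without overlap (adjusted p = 3.66e-07). Hspa13, an HSP70 of microsomes without a substrate-binding domain, gave 592, 945, 503 and 555, and the pituitary arrays (490 to 660) overlapped them. Both tissues were called higher (2.56-fold and 2.25-fold).

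Hspa4 (APG-2), another HSP110, was highest in pituitary at 1120, 786, 979 and 897 (2.74-fold, adjusted p = 2.17e-05), and hypothalamus followed with 700, 851, 608 and 836 (2.07-fold, adjusted p = 0.000631). The hypothalamus call was lost without its 10-month array (0.99), without its 24-month array (0.79) or without the spleen lymphocyte array at 24 months (0.999). In spleen lymphocyte Hspa4 was called lower (−1.07), and without the 24-month array of that tissue the difference was −0.81 and not called. Hspa1a, the classical heat-inducible HSP70 (read here by the probe set that names it alone), had modest signals, from 134 in bone to 659 in kidney. It was highest in kidney at 462, 481, 533 and 659 (0.90 ± 0.19, adjusted p = 0.000277), under 2-fold. Hsp90ab1, the constitutive HSP90, gave 3421, 4332, 2600 and 4910 in liver and 5464 to 9446 elsewhere, so that all liver arrays lay below all others (−0.94 ± 0.13, adjusted p = 1.66e-06, under 2-fold). Its second probe set, described further below, did not show this. With the mean of both probe sets the liver difference was −0.195. Kidney was then the lowest tissue, with −1.13 where the probe set used gave −0.17.

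All 8 TRiC subunits lay below 0 in liver (median −0.69, range −1.18 to −0.24, median of all genes −0.25). There was 1 lower call (16.3% of all genes). Cct2 gave 663, 784, 679 and 748 there, below all 20 other arrays (1122 to 2274, median 1624), 2.26-fold (adjusted p = 2.04e-07). Cct4 (1735 to 1916 in liver, −0.73) and Cct7 (862 to 981) also had their lowest tissue mean there. The 8 signs stayed the same with quantile normalization and with median centring, and with the mean of all probe sets 7 of 8 were below 0. Cct5 was called higher in spleen lymphocyte, where its 5783, 5682, 5988 and 6557 lay above all others (1387 to 3735, median 2350), 2.49-fold (adjusted p = 1.48e-08). Tcp1, the subunit that names the complex, ran from 2317 to 4258 over all arrays and was called in no tissue.

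The J proteins held the most tissue-restricted members. Dnajc6 (auxilin), which recruits HSP70 to uncoat clathrin vesicles in neurons, gave 3427, 3628, 2566 and 5182 in hypothalamus and 2172, 2194, 2005 and 2004 in pituitary. The next tissue was kidney with 373 to 588, and the other 3 tissues ran from 177 to 260. It was 9.03-fold higher in hypothalamus (3.17 ± 0.15, adjusted p = 3.15e-14) and 4.73-fold higher in pituitary (2.24, adjusted p = 2.68e-11), and was called lower in spleen lymphocyte (−1.75), liver (−1.72) and bone (−1.58). The lower calls follow in part from the mean of the other 5 tissues, which holds the 2 high ones. Dnajc27, a small GTPase with a J domain, gave 1301, 1600, 973 and 896 in hypothalamus, above all others (52.3 to 618, median 210), 5.29-fold (adjusted p = 2.19e-09), and was called lower in liver (−1.26). Dnajc5 (cysteine string protein), which guards synaptic vesicle fusion, gave 2583, 2452, 2232 and 2458 there against at most 1783 elsewhere (2.03-fold). Its second probe set was lower in hypothalamus (−0.37). The Dnajc5 difference was 0.25 and missed the threshold with the mean of both (adjusted p = 0.0805), and was 0.95 without the hypothalamus array at 4 months.

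Dnajc22, whose function in mammals is little studied, was nearly limited to liver and kidney. It gave 1836, 2058, 1591 and 1196 in liver and 704, 796, 689 and 703 in kidney, and the arrays of the other 4 tissues ran from 7.5 to 149, mostly under the floor of 100. The liver difference was 3.39 (10.5-fold) and the kidney difference 1.97 (3.92-fold), and both were called. Dnajc22 reached 100 on 12 arrays, the fewest that the filter admits, and these include all of liver and kidney. Its lower calls in the other 4 tissues rest on values set to 100. Those values also narrow the spread behind the liver and kidney calls, so no p-values are given for this gene. Dnajc13, a J protein of endosomes, was another kidney gene at 1653, 1337, 1468 and 1624, above all others (283 to 770, median 411), 3.41-fold (adjusted p = 7.71e-11).

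In spleen lymphocyte Dnajc2 (MPP11), which acts at the ribosome, gave 694, 977, 951 and 723, above all others (59.8 to 429, median 216), 3.97-fold (adjusted p = 1.19e-08). Its lower call in pituitary lay at the 2-fold limit (2-fold, adjusted p = 0.000212) and was lost without any 1 of 11 arrays, with −0.77 without the pituitary array at 24 months. Dnajb4, a partner of HSP70 close to Dnajb1, gave 2647, 2647, 3277 and 2485 in spleen lymphocyte, above all others (475 to 1660, median 627), 3.56-fold (adjusted p = 1.48e-11). Dnajb1 (HSP40), the partner of inducible HSP70, was also highest there at 730, 1238, 1211 and 955, under 2-fold (0.76 ± 0.15, adjusted p = 0.000145). On the same arrays the immediate early genes, which rise within minutes of handling or stimulation, had summed signals of 29213 to 34351 against at most 8966 in any other tissue, and all 7 that were tested were called higher (median 2.71, Fos 5.06). The part of that difference in the J protein levels was not tested. Dnajc12 (336, 201, 218 and 216) was 3.11-fold lower there (adjusted p = 3.32e-09). Dnaja1 ran from 1287 in bone to 5287 in kidney and reached no call.

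**Figure D3:**
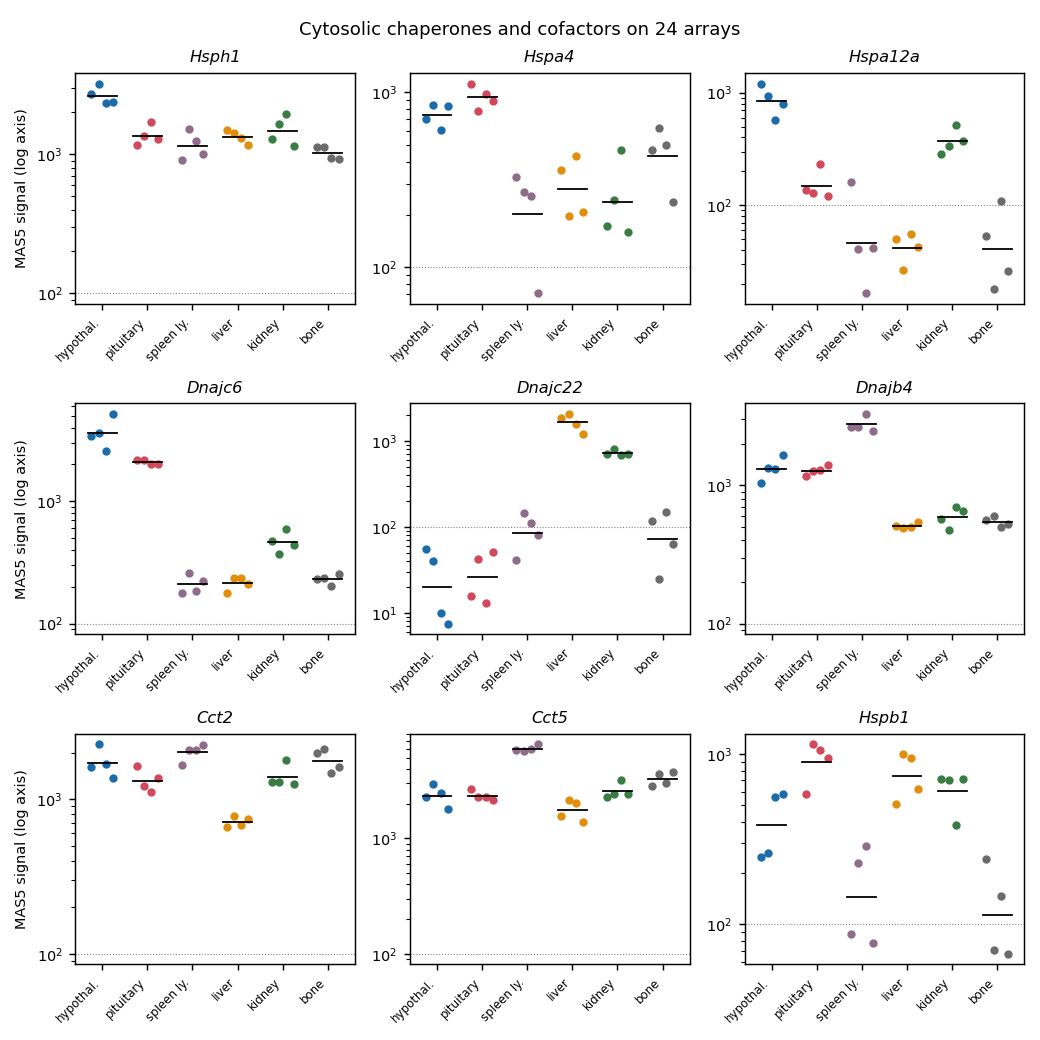
MAS5 signal (log axis) of 9 cytosolic chaperones and cofactors; each point is 1 array, the 4 points of a tissue run from 4 to 24 months from left to right, black bars are geometric means and the dotted line is a signal of 100. Hsph1, Hspa12a and Dnajc6 are highest in hypothalamus, Dnajc22 in liver, Dnajb4 and Cct5 in spleen lymphocyte, and Cct2 is lowest in liver.

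Of the 7 BAG proteins and other cofactors, all lay below 0 in liver (median −0.99, all genes −0.25). There 3 were called lower (16.3% of all genes). With quantile normalization 1 of the 7 lay above 0 in liver. Bag6 (BAT3), which guides tail-anchored and misplaced proteins, gave 45.5, 56.9, 37.4 and 27.8 in liver, under the floor of 100 on each array, where the other 20 arrays ran from 150 to 559. In bone it gave 425, 417, 484 and 559, above all others, 2.23-fold (adjusted p = 1.64e-06). A second Bag6 probe set stayed below 80 on all 24 arrays. With the mean of both, each floored at 100 (chosen after seeing the data), Bag6 was −0.76 in liver and 0.58 in bone and not called. Hspbap1, an Hspb1-associated protein, was highest in kidney at 572, 397, 423 and 389, above all others (17.3 to 309, median 127), 2.99-fold (adjusted p = 3.38e-09).

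Bag3, which sends clients of small heat shock proteins to autophagy, gave 1369, 1190, 1238 and 1099 in pituitary against at most 1157 elsewhere (the 10-month kidney array), 2.06-fold (1.04, adjusted p = 9.08e-06). The groups overlapped at that array, and the difference was 0.99 without the pituitary array at 18 months and just under 2-fold without the liver array at 10 months. Bag1 was lower in pituitary at 361, 373, 365 and 384, below all others (514 to 1145, median 724), 2.03-fold (adjusted p = 3.76e-07). That call was lost without the pituitary (−0.97) or hypothalamus (−0.997) array at 4 months. Bag2 was 2.35-fold higher in pituitary (330 to 547).

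Hspb1 (HSP27), the best known small heat shock protein, varied most between tissues in its group and most between ages of all members (SD within tissues 0.59, against a median of 0.25 for the members and 0.31 for all genes, log2). It gave 580, 1145, 1062 and 945 in pituitary, 2.76-fold higher (adjusted p = 0.000168), and 511, 1005, 943 and 628 in liver, 2.18-fold higher (adjusted p = 0.00161, with 0.98 and no call without the liver array at 10 months). In bone it gave 241, 70.4, 146 and 67.1 (−1.80, adjusted p = 1.31e-05) and in spleen lymphocyte 87.7, 228, 286 and 78.0 (−1.54, adjusted p = 6.41e-05). The lower calls in bone and spleen lymphocyte rest in part on values under 100 that were set to 100. Hspb6, Hspb7 and Hspb8 were not called. Hspb2 reached 100 on none of the arrays and Hspb3 on 4.

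Another 7 members fell short of 100 on at least 12 arrays and were not tested: Hspa12b (0 arrays), Hspa1l (1), Dnajb3 (2), Dnajb13 (5), Dnajb5 (6), Dnajb12 (7) and Dnajc17 (8). The testis-typical Dnajb3, Dnajb13 and Hspa1l peaked at 121, 168 and 106. Dnajb5 was highest in hypothalamus at 219, 146, 44.1 and 89.6.

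Age left far weaker traces than tissue. Over all 6 tissues no member was called for 10 against 4, 18 against 10, 24 against 18 or 24 against 4 months, and neither was any of the 8453 genes (0.0% of all genes in each comparison, limma). At an unadjusted p under 0.05 there were 0, 2, 2 and 2 members, where all genes gave 5.32%, 2.66%, 2.91% and 6.25%. The largest of these differences was in Hspa4, which from 18 to 24 months was −0.79 ± 0.25 (1.72-fold lower, unadjusted p = 0.00481, adjusted p = 1.0). Its signal was lower at 24 than at 18 months in 5 of the 6 tissues, and higher in hypothalamus (608 and 836).

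Within tissues, late ages (18 and 24 months) were set against early ages (4 and 10 months), with the 2 ages of each kind as samples, so that a steady change with age also counts as spread. No member was called in any of the 6 tissues (limma). Of all genes 1.7% were called in hypothalamus (1.43% higher late, 0.272% lower), 0.296% in bone (0.0828% higher, 0.213% lower), 0.237% in spleen lymphocyte (0.201% higher, 0.0355% lower), 0.0473% in liver (0.0237% each way) and 0.0% in kidney and pituitary. At an unadjusted p under 0.05 there were 9 members in hypothalamus (11.3% of all genes), 6 in bone (14.9%), 4 in spleen lymphocyte (7.11%), 2 each in kidney (5.32%) and liver (7.33%), and 1 in pituitary (2.08%). Nor was any member called for a difference between tissues in late against early (0.757% of all genes), where 3 members and 11.4% of all genes had an unadjusted p under 0.05 and the lowest adjusted p was 0.332.

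The members nearest to a call were few. In bone Hspa1a gave 183 and 134 early and 379 and 256 late (0.99 ± 0.29, adjusted p = 0.131). The 2 pairs did not overlap. Without the bone array at 24 months the difference was 1.27 (adjusted p = 0.0306), and Hspa2, an HSP70 best known from male germ cells (154 and 149 early, 297 and 158 late), was also called (0.97, adjusted p = 0.0332). Both then rest on the single late array at 18 months, the one with the high lowest range, which is assumed to vary like the other groups. At 4, 10, 18 and 24 months the bone arrays had summed signals of 72912, 47387, 37711 and 29397 for the bone markers, 2499, 7826, 8171 and 5481 for the skeletal muscle markers, and 37935, 48787, 52852 and 62163 for the erythroid markers. The part of these sums in the bone values was not tested. In hypothalamus Bag6 gave 411 and 338 early and 242 and 209 late (−0.73 ± 0.25, adjusted p = 0.184). With the floor at 200 it was called (adjusted p = 0.0375). P4hb in hypothalamus was −0.63 (adjusted p = 0.32) and was called without the 18-month array (−1.07, adjusted p = 0.0318), which leaves the 24-month array alone on the late side. Dnajb5 was called at −0.84 in hypothalamus under the looser filters that admit it. Both of its late values there lie under the floor and were set to it, so they show no spread. That call therefore rests in part on the floor, and its p-value cannot be judged. In spleen lymphocyte the ER members Dnajb11 (613 and 610 early, 989 and 1006 late) and Pdia6 (1753 and 2505 early, 3750 and 3037 late) differed by 0.71 ± 0.23 and 0.69 ± 0.23 (adjusted p = 0.383 and 0.421).

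Between consecutive ages of a tissue there is 1 array on each side, so changes carry no test. A gene was counted as changed at 2-fold with 100 or more on both arrays. This held for 26 of 1066 member measurements (2.44%, 12 higher and 14 lower) and for 3.85% of those of all genes. Of the 72 members, 17 changed, 51 were measured and never changed, and 4 had no measured phase. Hspa4 had 4 of them: from 18 to 24 months it went from 466 to 159 in kidney (2.93-fold lower), from 502 to 237 in bone and from 430 to 207 in liver after 196 in liver at 10 months.

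Several other changes turned back at the next age. Pdia4 went from 520 to 1232 in kidney between 10 and 18 months and stood at 713 at 24 months, and in spleen lymphocyte it went from 167 to 446 between 4 and 10 months. That first spleen lymphocyte array had the highest Actb ratio (3.74). Dnajc21, a ribosome biogenesis factor, went from 170 to 423 and back to 199 in kidney between 10, 18 and 24 months, and from 287 to 127 in spleen lymphocyte between 4 and 10 months. Dnajc4 went from 275 to 125 and back to 284 in pituitary, and Dnajc10 from 297 to 612 and back to 267 in spleen lymphocyte. The Dnajc10 steps with the mean of its probe sets were 0.48 and −0.57 on the log2 scale, where the one used gave 1.04 and −1.20. Among single steps, Hspa1a in bone was 2.83-fold higher at 18 than at 10 months, and on the kidney array at 18 months Dnaja3 and Hspbp1 were 2.1-fold and 2.09-fold lower than at 10 months. In hypothalamus Hspb6 went from 357 to 850 and Hspb1 from 263 to 556 between 10 and 18 months, and Hspa9 went from 2099 to 1014 in the same phase. The Hspa9 step was −1.05 on the log2 scale and −0.27 with the mean of its probe sets, and the 10-month array is the one with liver transcripts, whose part was not tested. Also in hypothalamus, Cct8 went from 588 to 1377 and Dnajc6 from 2566 to 5182 between 18 and 24 months. The Dnajc6 step was 1.01 on the log2 scale, 0.76 with the mean of its probe sets and 0.95 with median centring, the last 2 under 2-fold. In liver Dnajc7 went from 533 to 253 and Hspb3 from 223 to 101 between 18 and 24 months. In bone Dnajb2 went from 645 to 1591 between 4 and 10 months, and Bag2 and Hspb6 were 2.14-fold and 2.12-fold lower between 18 and 24 months.

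**Figure D4:**
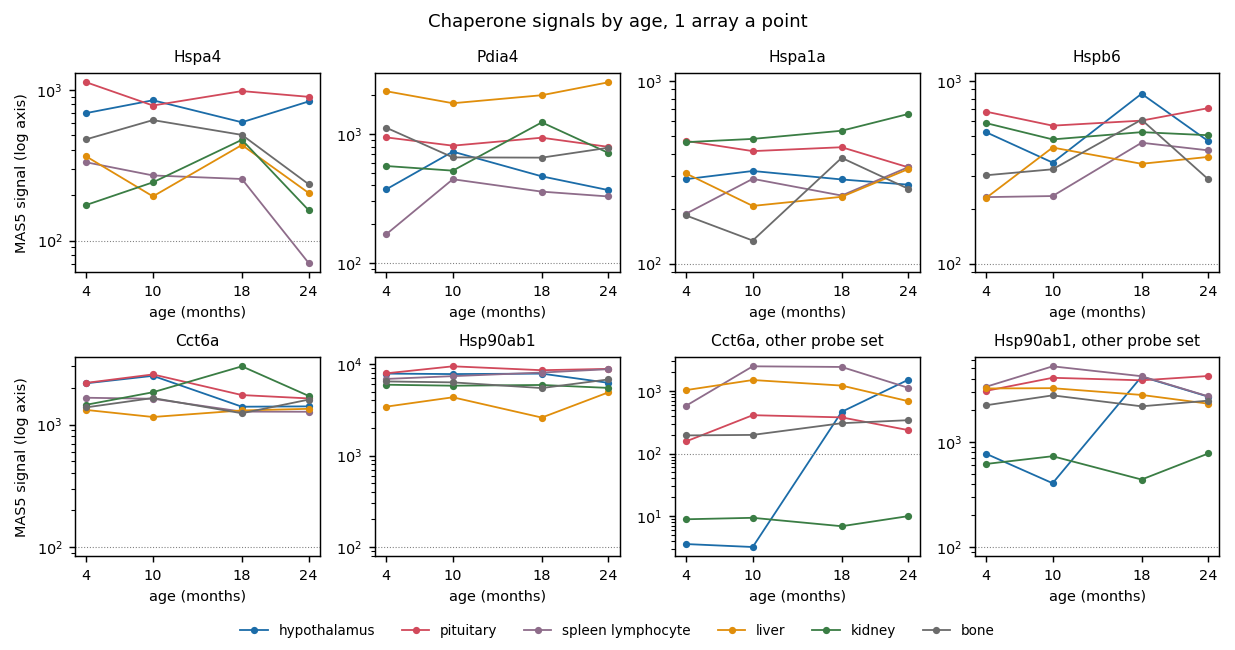
MAS5 signal (log axis) against age for Hspa4, Pdia4, Hspa1a, Hspb6, Cct6a and Hsp90ab1 and, in the last 2 panels, for the other probe sets of Cct6a and Hsp90ab1; each point is 1 array, lines join the ages of a tissue and the dotted line is a signal of 100. Hspa4 is lower at 24 than at 18 months in 5 of 6 tissues, and the hypothalamus line of the other Cct6a probe set goes from 3.19 at 10 months to 1531 at 24 months.

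On some arrays whole roles stood off their tissue means together. On the kidney array at 18 months the members lay 0.12 (median, log2) above their own tissue means while all genes lay at −0.06, with the HSP70 and HSP110 group at 0.34, TRiC at 0.32 and the ER group at 0.29. The hypothalamus array at 10 months was alike (members 0.12, ER group 0.25, TRiC 0.20, all genes −0.01). It is the array with the raised liver markers, and their part in these values was not tested. The hypothalamus array at 24 months had TRiC at −0.41. The bone array at 18 months was the opposite (members −0.16, ER group −0.26, mitochondrial group −0.32, all genes 0.02), with the HSP70 and HSP110 group at 0.40. TRiC had the highest median correlation of the roles: after tissue means were removed, r was 0.45 over its 28 pairs, against 0.04 over all pairs of members. These values are descriptions over 24 arrays that share tissues and ages.

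**Figure D5:**
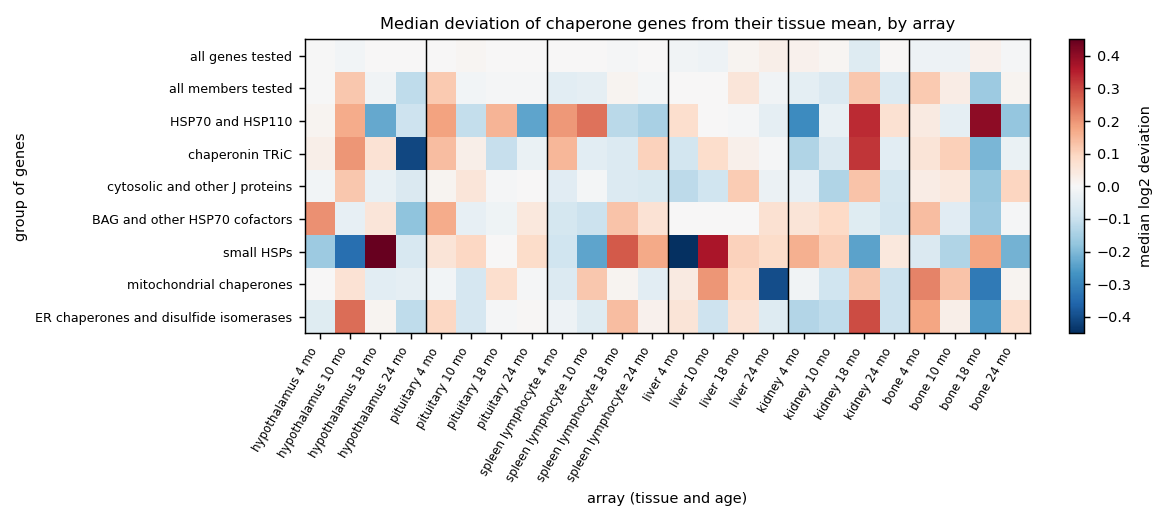
Median deviation (log2) of the genes of each role from their own tissue means on each of the 24 arrays, with all genes tested in the top row. The role rows turn red together on the kidney array at 18 months, except BAG cofactors (−0.06) and small heat shock proteins (−0.24), and mostly blue on the bone array at 18 months.

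Of the 72 members, 19 had several probe sets, and some of these disagreed. For Cct6a the probe set used was well measured throughout (1153 to 2989), and in hypothalamus it gave 2172, 2499, 1398 and 1408. The other gave 3.56, 3.19, 468 and 1531 in hypothalamus, 6.87 to 9.98 in kidney and 692 to 1512 in liver. With the mean of both, the late against early difference of Cct6a in hypothalamus was 3.45 ± 0.34 (adjusted p = 6.14e-06), and its difference between tissues was called too (adjusted p = 0.0025). That mean averages values of a few units, far below 100. With each probe set floored at 100 before averaging (chosen after seeing the data) neither was called (1.18 ± 0.34, adjusted p = 0.102, and adjusted p = 0.561 between tissues). The second probe set of Hsp90ab1 behaved in a like way, with 772, 404, 4178 and 2693 in hypothalamus and 438 to 775 in kidney, whereas the one used gave 7864, 7772, 7859 and 6231 and 5485 to 5944. With the mean of both, Hsp90ab1 was called higher late in hypothalamus (1.21, adjusted p = 0.00804), and so it was with each probe set floored (1.21, adjusted p = 0.00646). The Actb ratio of those hypothalamus arrays was 1.89, 3.09, 1.21 and 1.10, and its part was not tested. The second probe set of Hspb8 was high in liver (389 to 582), where the one used gave 64.1 to 194.

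Genes of the same pathways outside the naming rule were read from fixed lists, also chosen with earlier results of these data known. Of 22 tested genes of the unfolded protein response and ER folding, 7 were called higher and 2 lower in liver (10.1% and 16.3% of all genes). In hypothalamus none was called higher and 6 lower (11.8% and 11.4%). Pituitary had 3 higher and 1 lower (10.5% and 7.09%), and spleen lymphocyte 3 and 3 (13.4% and 15.2%). Kidney had 1 higher and 3 lower (11.0% and 8.92%), and bone 2 and 1 (10.8% and 8.71%). In spleen lymphocyte the median of the list was 0.27, where that of the ER members was −0.31. Edem1, which removes misfolded glycoproteins, was 2.44 higher in liver on the log2 scale (adjusted p = 8.51e-10) and 2.21 lower in hypothalamus (−2.21). Derl2, part of the channel for their export, was 2.74 higher in liver (adjusted p = 5.48e-11). The transcription factor Xbp1 gave 4979, 5899, 5278 and 6203 in liver and 1705 to 4769 elsewhere (1.10, adjusted p = 1.42e-07). By age, 1 of the 22 was called, with all 22 tried in every tissue. Hyou1 (GRP170), an HSP110 of the ER, gave 1154, 604, 474 and 114 in hypothalamus, lower at each age than at the one before. Late was −1.84 ± 0.45 against early (limma, adjusted p = 0.0347), where 0.272% of all genes were called lower. The 604 comes from the array with liver transcripts, whose part was not tested, and the 114 lies close to the floor. Whether the Hyou1 call holds under the alternatives is not reported here.

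Of the 14 heat shock factors and HSP90 cochaperones, where the shares of all genes are those given above for each tissue, 1 was called higher and 1 lower in hypothalamus (Stip1, the HSP70 to HSP90 adaptor, 1.15; Fkbp5, −1.06), 1 higher in pituitary (the ubiquitin ligase Stub1, 1.498), 2 lower in liver (Tomm34, −1.54; Stub1, −1.23) and 1 lower in spleen lymphocyte (Stip1, −1.09). Hsf1, which drives the heat shock response, was not called. Of 7 mitochondrial import and quality genes tested, 2 were called higher in liver and the same 2 in kidney, the tissues where Hspd1 was highest. They were Clpx, the unfoldase of the matrix protease (2.06 in liver, 1.21 in kidney), and Grpel1, the exchange factor of Hspa9 (1.01 in each). The list also had 1 gene called lower in liver, 1 higher and 1 lower in hypothalamus and 1 lower in bone. The shares of all genes are again those given above for each tissue. Among 5 prefoldin genes, Pfdn2 was higher in hypothalamus (1.56) and Pfdn5 in pituitary (1.07). Cryab, a small heat shock protein with a crystallin name, gave 7573, 7759, 3692 and 5477 in kidney and 1709, 1585, 2006 and 1223 in hypothalamus, and was called higher in both (4.26, adjusted p = 2.86e-13, and 2.01, adjusted p = 8.13e-08).

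By Pearson correlation of log2 signal over the 24 arrays, the genes most like Hspa5 were Elovl5 (0.93), Spcs3 (0.90), Txndc11 (0.88), Ltc4s (0.87) and Scarb2 (0.87). Those most like Hspd1 were Suclg2 (0.96), Fbp1 (0.96), Cyp4a3 (0.96), Akr1c13 (0.96) and Kmo (0.95). After tissue means were removed the closest to Hspa5 were Fundc1 (0.80), Ubl3 (0.79), Ptges3 (0.79), Tmem185b (0.77) and Atp2a2 (0.76), and to Hspd1 Pnn (0.85), Hapstr1 (0.79), Ubl3 (0.78), Fundc1 (0.78) and Rnf14 (0.77). These lists describe likeness of pattern over arrays that share tissues and ages.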

How the data were processed

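RNA from 24 pools (1 array per tissue and age, 10 rats each) was hybridised by the authors to Affymetrix rat arrays (RAE230A), and the deposited values are MAS5 signal intensities scaled to a target of 500. Of 15923 probe sets, 12789 have a single symbol, 312 have several and the rest none in the annotation used here. Each gene was read by the probe set with most arrays at 100 or more, ties going to the highest mean log2. Log2 signals floored at 100 were fitted with limma (version 3.58.1, R 4.3.3) for genes at 100 or more on at least 12 arrays: tissue plus age (15 residual degrees of freedom), and tissue by early or late ages (12). p-values were adjusted by Benjamini-Hochberg over 8453 genes. Signals of different probe sets were not compared. The fits were run on simulated data with independent normal errors drawn from the fitted spread. Such data hold no shared rats, values set to 100 or unequal arrays, so that run does not check the p-values for these. The single array per tissue and age limits the precision, and p-values measure the spread between pools of different age, not between animals. Named genes were the defining members, the 3 strongest calls each way per tissue, and up to 2 changes each way per tissue and phase. Cct2, Hspa12a, Hspa13, Hspa2, Dnajc5, Dnajc10, Dnajc12, Hspbap1, Bag2, Dnajb11, Pdia6, Hspb8 and the members near a threshold were added after their values were seen. The members and lists were chosen with earlier results of these data known. Alternatives were other floors, filters, scalings, probe set means, array weights, and leaving out arrays or tissues. Promoters are RefSeq's (GRCr8), matched by gene identifier, and 1 promoter stretch is not reported here. Adrenal gland was not analysed here.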

Additional observations from a re-analysis of the deposited data

How the results depend on the processing

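Of 70 tissue calls, 31 held under every alternative and none changed direction; where the other 39 were lost, the difference slipped under 2-fold with the adjusted p still below the threshold in 156 of 157 cases. Counts per tissue moved by over 1.5 times in few settings: bone fell from 8 to 5 with a floor of 200, and kidney rose from 6 to 10 with array weights and likewise without the 3 arrays named above (chosen after seeing the data). With no fold limit the counts were 41 in hypothalamus (58.6% of all genes), 33 in pituitary (53.8%), 44 in spleen lymphocyte (65.1%), 47 in liver (64.3%), 29 in kidney (55%) and 39 in bone (54.3%). Leaving out 1 array gave 0 to 2 late against early calls in bone and 0 to 1 in hypothalamus, where the count was 1 with a floor of 200, 1 with a filter of 4 arrays, 1 with no filter, 2 with the mean of all probe sets and 1 with that mean when each probe set was floored (chosen after seeing the data). The unfloored mean also gave 1 member called for a difference between tissues. The age comparisons over all tissues gave 0 calls under every alternative. Changes by phase numbered 148 at 1.5-fold, 0 at 3-fold, 43 with a floor of 50 and 15 with a floor of 200. With quantile normalization 20 of the 26 changes remained, with median centring 18 and with probe set means 22. Median centring moved the median of all genes in late against early hypothalamus from 0.0 to −0.12, and quantile normalization moved that in liver against the other tissues from −0.25 to −0.13. The cause of these shifts was not tested. The tissue comparisons are paired by set of rats through the age factor, and without it the counts were the same (12 in hypothalamus, 10 in pituitary, 14 in spleen lymphocyte, 20 in liver, 6 in kidney and 8 in bone). No paired analysis was possible for the ages because each tissue and age has a single array. MAS5 signals near 100 are close to background, which limits what can be said of the 9 members not tested and of Dnajc22, Bag6, Hspa12a, Hspbap1 and Hspb1 where they lie under it.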
